A study of Mus musculus with 90 samples.

Results

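The measurements described here are 40 of the 90 liver RNA-seq libraries of the series: all 4 groups of the second experiment, with 10 libraries each, which cross a knockdown with an antibody. Mice were given AAV8 carrying either a short hairpin RNA against Prkar1a (Prkar1a KD) or a Control AAV, and were treated with an antibody to the receptor for glucagon (Gcgr mAb) or with a Control mAb. The groups are Prkar1a KD + Gcgr mAb, Prkar1a KD + Control mAb, Control AAV + Gcgr mAb and Control AAV + Control mAb, so that every mouse carried a vector and received an antibody. The labels do not name the promoter that drives the hairpin, the strain, the age or the sex. Nor do they say whether each library is 1 mouse, and the p-values therefore describe the spread between libraries, which may in part be technical. The question of the design is whether the antibody acts on a transcript to the same extent when protein kinase A (PKA) is freed from its regulatory subunit. It is answered by the interaction, the log2 fold change of Gcgr mAb over Control mAb in Prkar1a KD minus the same fold change in Control AAV.

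The glucagon receptor is a G protein-coupled receptor of hepatocytes. Glucagon binding activates the stimulatory G protein and adenylyl cyclase, and the cAMP formed releases the catalytic subunits of PKA from a regulatory subunit dimer. Free PKA phosphorylates CREB and other proteins, and in the liver it favours gluconeogenesis, amino acid uptake and ureagenesis. Prkar1a encodes the type I alpha regulatory subunit, which holds the catalytic subunits inactive, so its loss acts at a step after the receptor.

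The 40 libraries held 8.87 M to 19.5 M counts each, and the group medians ran from 16.3 M to 16.6 M. The summed hepatocyte markers, 12 of 12 detected, had medians of 64000 CPM (the count of a gene relative to the scaled library total) in Prkar1a KD + Gcgr mAb, 59300 CPM in Prkar1a KD + Control mAb, 92100 CPM in Control AAV + Gcgr mAb and 102000 CPM in Control AAV + Control mAb. With Control mAb, 5 of the 12 markers were called higher in Prkar1a KD than in Control AAV (edgeR, adjusted p under 0.05, background 29.3%). The other 7 were called lower (background 26.9%), so the sum joins markers that moved in opposite directions. In bulk tissue, fewer cells of a type, less RNA per cell and a change of single abundant transcripts cannot be told apart by a sum. The library of Control AAV + Gcgr mAb replicate 2 stood apart, with a median correlation of 0.9451 with its group, where the median of all libraries was 0.9853, and with the highest sums of the stellate cell (1010 CPM), Kupffer cell (690 CPM) and endothelial (293 CPM) markers. Control AAV + Gcgr mAb replicate 3 (correlation 0.974) had 851 CPM of pancreatic acinar markers, where no other library passed 30 CPM. The next lowest correlation, 0.967, was that of Control AAV + Control mAb replicate 10. The interaction counts were repeated without Control AAV + Gcgr mAb replicate 2 and the shallowest library, Prkar1a KD + Gcgr mAb replicate 2, together. They were also repeated without each library in turn.

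The targeted transcript was lower in every knockdown library. Prkar1a (Entrez gene 19084, chromosome 11, 109649023 to 109669663 in GRCm38.p6) had 30.2, 32.7 and 41.4 CPM in the lowest, median and highest library of Prkar1a KD + Gcgr mAb and 28.6, 32.8 and 35.1 CPM in Prkar1a KD + Control mAb. It had 106, 110 and 124 CPM in Control AAV + Gcgr mAb, against 97.8, 122 and 135 CPM in Control AAV + Control mAb. Both knockdown groups thus lay wholly below their Control AAV groups, and the antibody groups overlapped within each vector. The interaction of Prkar1a itself was 0.20 ± 0.079 (SE) and did not pass the test (adjusted p = 0.139, edgeR quasi-likelihood test with Benjamini-Hochberg adjustment over 12847 genes, as for every adjusted p unless another tool is named).

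Calls were made below an adjusted p of 0.05. The interaction was called for 524 genes, 4.08% of those tested. It was positive for 352 genes (2.74%), where the antibody effect lay higher in Prkar1a KD than in Control AAV, and negative for 172 genes (1.34%). Genes at the edge were Mitd1 (-0.39, adjusted p = 0.0496) and F2r (-0.59, adjusted p = 0.0499) just inside it and Leap2 (0.83, adjusted p = 0.0506) and Polr3gl (0.43, adjusted p = 0.0507) just outside it. With Control AAV + Gcgr mAb replicate 2 and Prkar1a KD + Gcgr mAb replicate 2 left out, 353 positive and 146 negative genes were called, of which 292 and 111 were called with all libraries. Without the library with acinar markers, 427 positive and 223 negative genes were called. Leaving out 1 library at a time gave 269 to 448 positive genes and 111 to 254 negative genes. The fewest positive calls came without Control AAV + Control mAb replicate 2, the fewest negative calls without Prkar1a KD + Control mAb replicate 5, and the most of both without Control AAV + Control mAb replicate 6.

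The antibody changed many transcripts in Control AAV livers, and no gene was called for it in Prkar1a KD livers. In Control AAV 1052 genes (8.19%) were called, of which 375 (2.92%) were higher and 677 (5.27%) were lower with Gcgr mAb. In Prkar1a KD, 0 genes (0%) were called by edgeR, where 846 genes had an unadjusted p under 0.05 and the lowest adjusted p was 0.447. DESeq2 and limma-voom also called 0 genes there, with 902 and 782 genes at an unadjusted p under 0.05. The median standard error of the antibody effect was 0.105 log2 units in Prkar1a KD and 0.105 log2 units in Control AAV. The fit shares a single estimate of the spread per gene over all 4 groups, so these values do not compare the precision of the vectors.

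The antibody effect is shown gene by gene for both vectors, which share no library. Over all 12847 tested genes, the effects in Prkar1a KD and in Control AAV had a Pearson r of -0.056 and a Spearman rho of -0.234. The 677 genes that were lower in Control AAV had a median antibody effect of 0.04 in Prkar1a KD (quartiles -0.01 and 0.10) and of -0.35 in Control AAV. In Prkar1a KD, 205 of the 677 had the same sign as in Control AAV. There 47 had an unadjusted p under 0.05 (6.59% of all tested genes did), and 6 of those 47 had the same sign. The 375 genes that were higher in Control AAV had a median effect of -0.01 in Prkar1a KD (quartiles -0.09 and 0.09) and of 0.46 in Control AAV. Of these, 176 had the same sign in Prkar1a KD, 43 had an unadjusted p under 0.05 there (background 6.59%), and 22 of those 43 had the same sign. The interaction itself was called for 308 of the 677 and 110 of the 375 genes, so for the others a difference between the vectors was not shown.

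**Figure D1:**
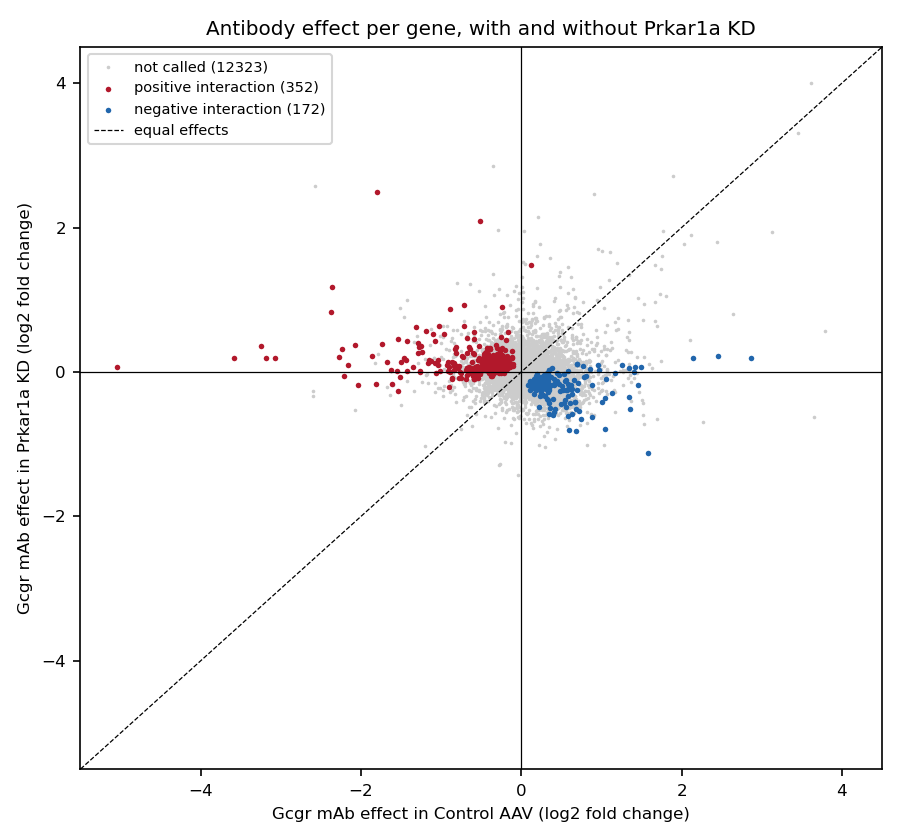
Log2 fold change of Gcgr mAb over Control mAb for each of 12847 tested genes, in Prkar1a KD (vertical) and in Control AAV (horizontal), with the 352 positive and 172 negative interaction genes in colour and a dashed line where both effects are equal. The called genes spread along the horizontal axis and lie near 0 on the vertical axis, with medians of 0.10 and -0.17 in Prkar1a KD for the positive and negative genes, against -0.38 and 0.34 in Control AAV.

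The positive genes had more than 1 shape. The mean of Control AAV + Gcgr mAb was the lowest of the 4 groups for 209 of the 352 genes (59.4%, against 25.5% of all tested genes), and the mean of Prkar1a KD + Control mAb was the lowest for 138 (39.2%, against 29.4%). The interaction and the lowest group mean picked these genes in the same libraries. The shares, and the counts of knockdown calls that follow, are therefore a description and not a separate result. Of the 209, 187 were called higher in Prkar1a KD than in Control AAV with Gcgr mAb (background 26.5%) and 102 were called higher with Control mAb (background 29.3%). All 138 of the other kind were called lower in Prkar1a KD than in Control AAV with Control mAb (background 26.9%), and 74 of them were called lower with Gcgr mAb (background 26.6%).

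Enzymes that break down amino acids stood among the genes of the first shape. Of 57 tested genes of amino acid catabolism, 15 (26.3%) had a positive and 0 a negative interaction, with a median of 0.33 against -0.01 over all tested genes. Over all tested genes 2.74% were positive and 1.34% negative. These shares are the background of every list count of the interaction below. The called ones were Got1, Oat, Sds, Gls2, Tat, Sdsl, Hgd, Gnmt, Cbs, Cth, Aass, Aldh4a1, Agxt2, Ftcd and Bckdha. The median antibody effect over the list was 0.07 in Prkar1a KD and -0.23 in Control AAV.

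Got1 (Entrez gene 14718, chromosome 19, 43499752 to 43524605), the cytosolic aspartate aminotransferase, had the lowest p of all genes. It had 546, 711 and 817 CPM in the lowest, median and highest library of Prkar1a KD + Gcgr mAb and 608, 728 and 858 CPM in Prkar1a KD + Control mAb, against 26.1, 33.9 and 44.4 CPM in Control AAV + Gcgr mAb and 114, 156 and 206 CPM in Control AAV + Control mAb. The antibody groups overlapped in Prkar1a KD, whereas in Control AAV every Gcgr mAb library lay below every Control mAb library. Its antibody effect was -0.05 ± 0.094 in Prkar1a KD (adjusted p = 0.964) and -2.22 ± 0.099 in Control AAV (adjusted p = 2.27e-20), an interaction of 2.17 ± 0.14 (adjusted p = 4.46e-15). The same non-overlap was found for 46 of the 352 positive genes in Control AAV (background 0.381%) and for none of them in Prkar1a KD (background 0%). The interaction picked these genes from the same libraries, so these counts are a description too.

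Gls2 (chromosome 10, 128194635 to 128210004), the liver glutaminase, had 908, 1190 and 1250 CPM in Prkar1a KD + Gcgr mAb and 892, 1150 and 1300 CPM in Prkar1a KD + Control mAb, against 63.6, 93.9 and 138 CPM in Control AAV + Gcgr mAb and 217, 281 and 327 CPM in Control AAV + Control mAb. As for Got1, the groups overlapped in Prkar1a KD and did not in Control AAV. Its interaction was 1.57 ± 0.14 (adjusted p = 3.74e-10). Oat (chromosome 7, 132557475 to 132576398), the ornithine aminotransferase, had an interaction of 1.81 ± 0.29 (adjusted p = 0.000123), with 2440, 2810 and 3440 CPM in Prkar1a KD + Gcgr mAb and 2160, 2550 and 2860 CPM in Prkar1a KD + Control mAb, against 38.9, 331 and 542 CPM in Control AAV + Gcgr mAb and 526, 927 and 1330 CPM in Control AAV + Control mAb. Here the Control AAV groups overlapped, and the library at 38.9 CPM was Control AAV + Gcgr mAb replicate 2.

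Sds (chromosome 5, 120476547 to 120483932), the serine dehydratase, had 187, 219 and 400 CPM in Prkar1a KD + Gcgr mAb and 168, 231 and 331 CPM in Prkar1a KD + Control mAb, against 12.7, 36.7 and 56.2 CPM in Control AAV + Gcgr mAb and 64.5, 89.9 and 161 CPM in Control AAV + Control mAb. The interaction of Sds was 1.63 ± 0.28 (adjusted p = 0.000357). For Tat, the tyrosine aminotransferase and the classical hormone-induced liver enzyme, it was 0.86 ± 0.17 (adjusted p = 0.00221), with antibody effects of 0.06 ± 0.12 in Prkar1a KD and -0.80 ± 0.12 in Control AAV. Both genes were higher with Prkar1a KD under either antibody, and no library of the knockdown groups overlapped its Control AAV group.

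Some urea cycle genes were of the same shape. Of 9 tested genes of the urea cycle and its carriers, 4 (44.4%, background 2.74%) had a positive and 0 a negative interaction, with a median of 0.58. Arg1 (chromosome 10, 24915207 to 24927470), the arginase that releases urea, had 1490, 1850 and 2180 CPM in Prkar1a KD + Gcgr mAb and 1330, 1790 and 2270 CPM in Prkar1a KD + Control mAb, against 448, 659 and 760 CPM in Control AAV + Gcgr mAb and 889, 1060 and 1180 CPM in Control AAV + Control mAb. The antibody groups overlapped in Prkar1a KD and were wholly apart in Control AAV, and the interaction was 0.73 ± 0.12 (adjusted p = 7.01e-05). The others called were Slc25a22, a mitochondrial glutamate carrier (0.74 ± 0.11), Slc25a15, the mitochondrial ornithine carrier (0.62 ± 0.12), and Asl, the argininosuccinate lyase (0.58 ± 0.13). Cps1, the rate-limiting carbamoyl phosphate synthetase, was at 0.36 ± 0.20 (adjusted p = 0.295).

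Of 21 tested amino acid transporters, 3 had a positive and 1 a negative interaction (19% in either direction, background 4.08%), and the median was -0.25. Slc7a2 (chromosome 8, 40862341 to 40922070), a cationic amino acid transporter, had 2040, 2500 and 2910 CPM in Prkar1a KD + Gcgr mAb and 1920, 2370 and 2560 CPM in Prkar1a KD + Control mAb, against 150, 253 and 284 CPM in Control AAV + Gcgr mAb and 324, 511 and 732 CPM in Control AAV + Control mAb. Its interaction was 1.20 ± 0.17 (adjusted p = 6.5e-06). The other positive members were Slc38a3 and Slc38a4, sodium-coupled carriers of neutral amino acids, at 0.66 ± 0.16 and 0.64 ± 0.13. The negative one was Slc7a5, the light chain of the large neutral amino acid transporter, at -0.77 ± 0.22 (adjusted p = 0.0357). It passed the test without 32 of the 40 libraries in turn and failed without the other 8, with a highest adjusted p of 0.0641.

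Among 18 tested genes of gluconeogenesis, 8 (44.4%, background 2.74%) had a positive and 0 a negative interaction, and the median was 0.34. Pck1 (chromosome 2, 173153073 to 173159274), the cytosolic phosphoenolpyruvate carboxykinase, had 5550, 6640 and 7020 CPM in Prkar1a KD + Gcgr mAb and 5840, 6690 and 6970 CPM in Prkar1a KD + Control mAb, against 142, 443 and 854 CPM in Control AAV + Gcgr mAb and 723, 1090 and 1880 CPM in Control AAV + Control mAb. The antibody effect was -0.01 ± 0.18 in Prkar1a KD (adjusted p = 0.999) and -1.27 ± 0.18 in Control AAV (adjusted p = 4.15e-06), an interaction of 1.26 ± 0.25 (adjusted p = 0.00211). Fbp1, the fructose-1,6-bisphosphatase, reached 0.92 ± 0.099 (adjusted p = 2.69e-08), and its antibody groups did not overlap in Control AAV. Slc25a10, the mitochondrial dicarboxylate carrier, was at 0.94 ± 0.17, and the others called were Got1, Tat, Gpd1, Ldha and Pcx.

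G6pc, the glucose-6-phosphatase that completes glucose output, did not pass the test. It had 133, 602 and 844 CPM in Prkar1a KD + Gcgr mAb and 284, 633 and 836 CPM in Prkar1a KD + Control mAb, against 67, 129 and 176 CPM in Control AAV + Gcgr mAb and 67.2, 236 and 297 CPM in Control AAV + Control mAb. The groups overlapped within each vector, and the interaction was 0.59 ± 0.34 (adjusted p = 0.318). Ppargc1a, a coactivator of gluconeogenic genes, was at 0.23 ± 0.23 (adjusted p = 0.594).

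**Figure D2:**
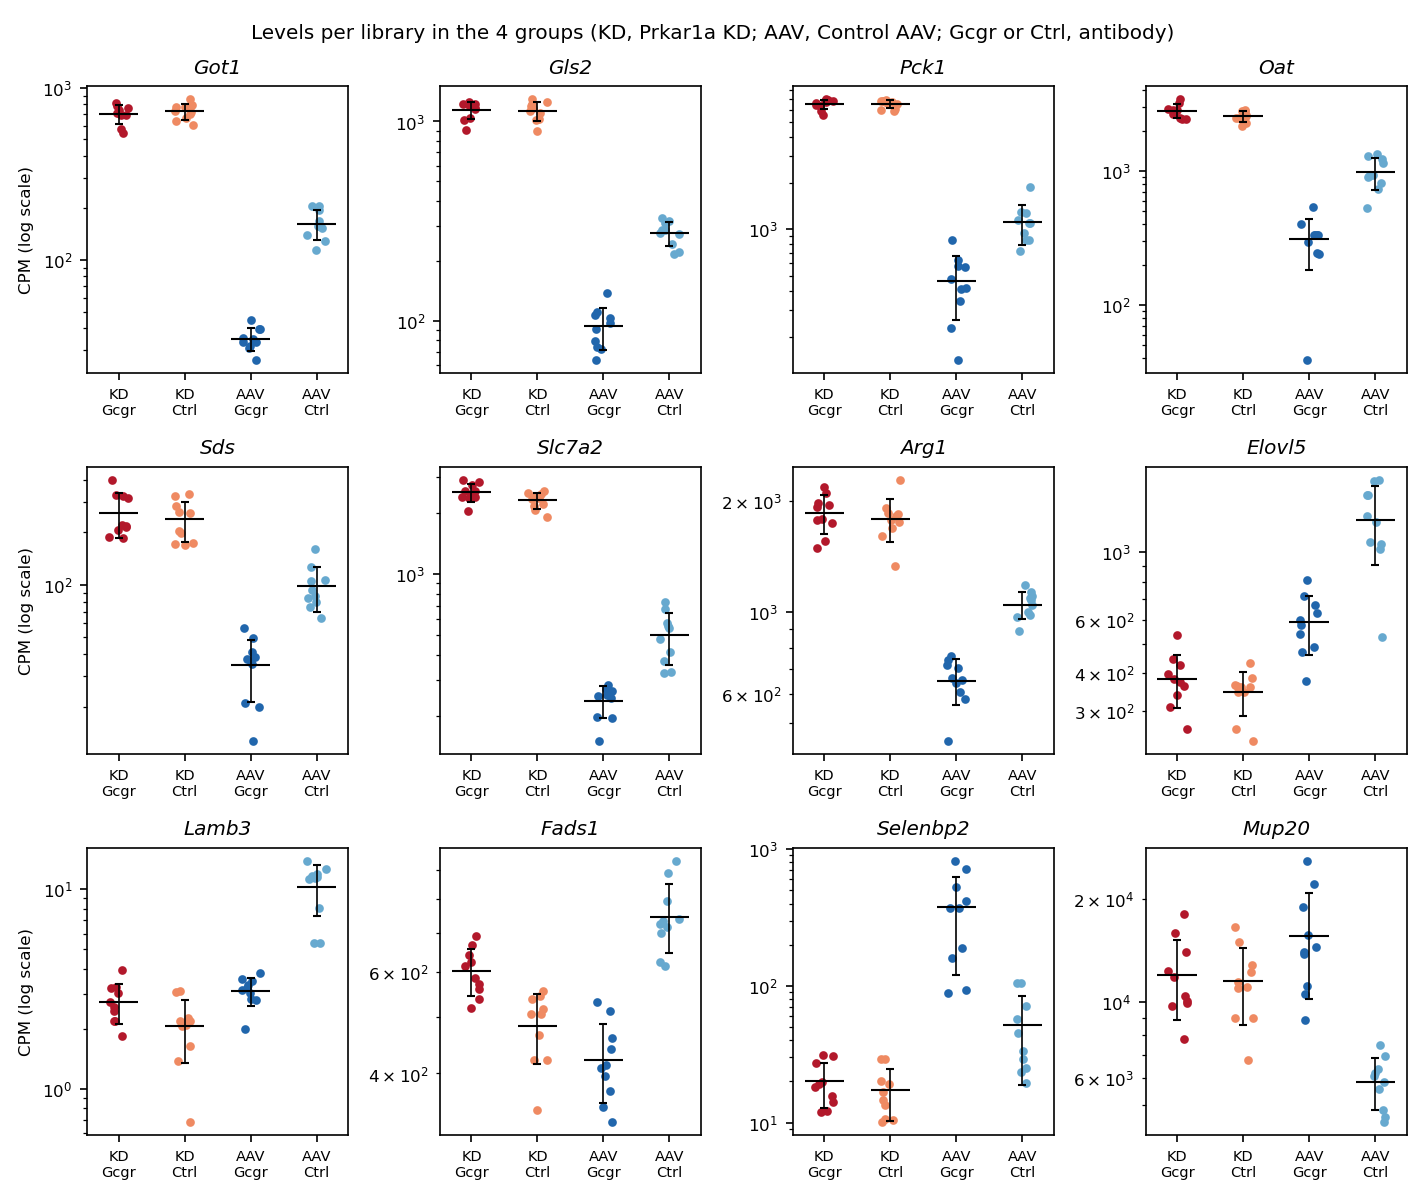
CPM of 12 genes in each library (log axis, 10 points per group) with the mean and SD, in the order Prkar1a KD + Gcgr mAb, Prkar1a KD + Control mAb, Control AAV + Gcgr mAb and Control AAV + Control mAb. For Got1, Gls2, Pck1, Oat, Sds, Slc7a2 and Arg1 the knockdown groups are level with each other and above both Control AAV groups, whereas for Elovl5 and Lamb3 they lie at or below the Control AAV + Gcgr mAb group.

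Elovl5 is an example of the other shape, with its lowest mean in Prkar1a KD + Control mAb. Elovl5 (chromosome 9, 77917365 to 77984519), an elongase of polyunsaturated fatty acids, had 261, 379 and 534 CPM in Prkar1a KD + Gcgr mAb and 239, 360 and 431 CPM in Prkar1a KD + Control mAb, against 376, 585 and 813 CPM in Control AAV + Gcgr mAb and 527, 1290 and 1730 CPM in Control AAV + Control mAb. The antibody effect was 0.15 ± 0.15 in Prkar1a KD (adjusted p = 0.907) and -1.12 ± 0.15 in Control AAV (adjusted p = 1.05e-06), an interaction of 1.27 ± 0.21 (adjusted p = 0.000164). With Control mAb every knockdown library lay below every Control AAV library, and with Gcgr mAb the vectors overlapped.

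Of 30 tested genes of glycolysis and lipogenesis, 6 (20%, background 2.74%) had a positive and 0 a negative interaction, with a median of 0.51. Beside Elovl5 they included Fads1 and Fads2, the delta-5 and delta-6 desaturases, Me1, the cytosolic malic enzyme, and Eno1, an enolase. Fads1 (chromosome 19, 10182877 to 10196874) had 518, 598 and 691 CPM in Prkar1a KD + Gcgr mAb and 346, 506 and 555 CPM in Prkar1a KD + Control mAb, against 330, 411 and 532 CPM in Control AAV + Gcgr mAb and 614, 730 and 931 CPM in Control AAV + Control mAb. The antibody groups were wholly apart in Control AAV and overlapped in Prkar1a KD. The effect of the antibody on Fads1 was 0.32 ± 0.087 in Prkar1a KD (adjusted p = 0.447) and -0.82 ± 0.087 in Control AAV (adjusted p = 6.82e-09), and the interaction was 1.14 ± 0.12 (adjusted p = 2.69e-08). The lowest mean of Fads1, Fads2 and Eno1 was that of Control AAV + Gcgr mAb, and Fads2 was 1.04 with Prkar1a KD under Gcgr mAb (adjusted p = 4.64e-10) and -0.03 under Control mAb (adjusted p = 0.824).

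Of 34 tested genes of fatty acid oxidation and ketogenesis, 10 (29.4%, background 2.74%) had a positive interaction and 0 a negative one, with a median of 0.28. Their interactions were small, from 0.32 for Decr1, Acadl and Acadm to 0.70 ± 0.15 for Crat, the carnitine acetyltransferase. Acads (chromosome 5, 115110299 to 115119346), the short-chain acyl-CoA dehydrogenase, had 115, 129 and 135 CPM in Prkar1a KD + Gcgr mAb and 113, 120 and 131 CPM in Prkar1a KD + Control mAb, against 84.2, 108 and 119 CPM in Control AAV + Gcgr mAb and 113, 145 and 173 CPM in Control AAV + Control mAb. The groups overlapped within each vector, and the interaction of Acads was 0.50 ± 0.088 (adjusted p = 0.000437). Acads and Crat had their lowest mean in Control AAV + Gcgr mAb, and Hadh, a dehydrogenase of the same pathway, in Prkar1a KD + Control mAb. Among 16 lipid droplet proteins, Plin2 (0.67 ± 0.16) and Plin3 (0.51 ± 0.13), droplet coat proteins, were called, with their lowest means in Prkar1a KD + Gcgr mAb for Plin2 and in Prkar1a KD + Control mAb for Plin3.

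Lamb3 (chromosome 1, 193294353 to 193343878), the laminin beta-3 chain, was also lowest in Prkar1a KD + Control mAb, with an interaction of 2.12 ± 0.26 (adjusted p = 3.82e-07). It had 1.84, 2.64 and 3.93 CPM in Prkar1a KD + Gcgr mAb and 0.682, 2.13 and 3.11 CPM in Prkar1a KD + Control mAb, against 1.99, 3.16 and 3.81 CPM in Control AAV + Gcgr mAb and 5.37, 11.5 and 13.9 CPM in Control AAV + Control mAb. Control AAV + Control mAb stood above the other groups, with no overlap with Control AAV + Gcgr mAb or Prkar1a KD + Control mAb. Gstm2, a glutathione transferase with its lowest mean in Control AAV + Gcgr mAb, was at 1.65 ± 0.29 (adjusted p = 0.000409), 1 of 3 positive genes among 22 tested conjugation enzymes. Of 14 tested glycogen genes, 3 were positive and 0 negative: Ppp1r3g, a glycogen-targeting phosphatase subunit (3.21 ± 0.82), Gys2, the liver glycogen synthase (0.69 ± 0.19), and Ugp2, which makes UDP-glucose (0.66 ± 0.13). Of these, Gys2 was lowest in Prkar1a KD + Control mAb, and Ppp1r3g and Ugp2 in Control AAV + Gcgr mAb. Ppp1r3g had very low counts, with group means from 0.197 to 1.09 CPM, and lost the call with limma-voom.

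The largest positive interactions were of genes with very low counts in Control AAV + Gcgr mAb. Mmd2 (chromosome 5, 142563480 to 142608936), a member of the progestin and adipoQ receptor family, had 42.5, 82.2 and 122 CPM in Prkar1a KD + Gcgr mAb and 54.4, 86.5 and 103 CPM in Prkar1a KD + Control mAb, against 0.0554, 0.158 and 0.890 CPM in Control AAV + Gcgr mAb and 5.16, 7.43 and 13.0 CPM in Control AAV + Control mAb. Its interaction was 5.11 ± 0.38 (adjusted p = 2.67e-12). Cyp17a1 (chromosome 19, 46667165 to 46673000), the steroid 17-alpha-hydroxylase, had 96.7, 266 and 495 CPM in Prkar1a KD + Gcgr mAb and 135, 319 and 397 CPM in Prkar1a KD + Control mAb, against 1.37, 3.54 and 6.65 CPM in Control AAV + Gcgr mAb and 19.8, 43.7 and 76.5 CPM in Control AAV + Control mAb. Its interaction was 3.77 ± 0.39 (adjusted p = 2.47e-08). For Mmd2 and Cyp17a1 the antibody groups were wholly apart in Control AAV and overlapped in Prkar1a KD.

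The other 8 of the 10 largest positive interactions among genes whose mean log2 CPM was 1 or more were Gprc5b (3.61 ± 0.76), an orphan receptor, Eno1b (3.39 ± 0.96), Tmem266 (3.27 ± 0.43), Nptx1 (2.56 ± 0.45), a pentraxin, Cyp2a22 (2.47 ± 0.71), Treh (2.45 ± 0.44), the trehalase, Got1 and Lamb3. Eno1b rested on 1 library, Control AAV + Control mAb replicate 10, at 89.6 CPM, where the median of its group was 1.49 CPM. Without it the interaction of Eno1b was 0.80 (adjusted p = 0.242). Cyp2a22 lost the call without any 1 of 16 libraries, with a highest adjusted p of 0.0677.

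Some interactions were called on the log2 scale and not on a linear scale. On the log2 scale the antibody multiplies a level, and on the linear scale it adds to it, so an equal loss in CPM is a smaller fold change from a higher level. When the difference of the antibody differences was tested in CPM with limma, 303 genes (2.36%) were positive and 173 (1.35%) negative, and 262 of the 352 and 125 of the 172 kept their call and sign. Of the 209 positive genes that were lowest in Control AAV + Gcgr mAb, 136 (65.1%) kept it. Of the 138 that were lowest in Prkar1a KD + Control mAb, 121 (87.7%) kept it.

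For Got1 the linear difference of the antibody groups was -24.7 ± 36.3 CPM in Prkar1a KD and -127 ± 10.2 CPM in Control AAV, and the linear interaction of 102 CPM missed the threshold (limma, adjusted p = 0.107). For Pck1 the differences were -32.6 ± 198 CPM in Prkar1a KD and -653 ± 123 CPM in Control AAV, with a linear interaction of 620 CPM (limma, adjusted p = 0.146). For both genes the standard error was larger in Prkar1a KD, where the level was higher. Among the positive genes chosen by rule, linear calls were also lost for Sds, Tat, Slc25a15, Slc25a22, Nr4a2, Pde4b and Mmd2. Cyp17a1, Tmem266, Nptx1, Gprc5b, Eno1b, Cox7a2 and E2f1 lost theirs too. Negative genes chosen by rule that lost the linear call were Cav1, Cd14, Enho, Oas1g, Ifit1, Mx1, Zbp1, Inhba, Hamp, Slc7a5 and Itih3.

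For Oat the differences were 250 ± 126 CPM in Prkar1a KD and -674 ± 91.7 CPM in Control AAV, and the linear interaction of 925 CPM was called (limma, adjusted p = 0.000322). Gls2 (192 CPM, adjusted p = 0.0401), Arg1 (459 CPM, adjusted p = 0.0144) and Fbp1 (430 CPM, adjusted p = 0.00167) kept the call by limma on either scale. The linear interactions of Elovl5 (731 CPM, adjusted p = 0.000393), Fads1 (443 CPM, adjusted p = 1.26e-07) and Lamb3 (7.88 CPM, adjusted p = 2.98e-06) were called by limma as well.

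**Figure D3:**
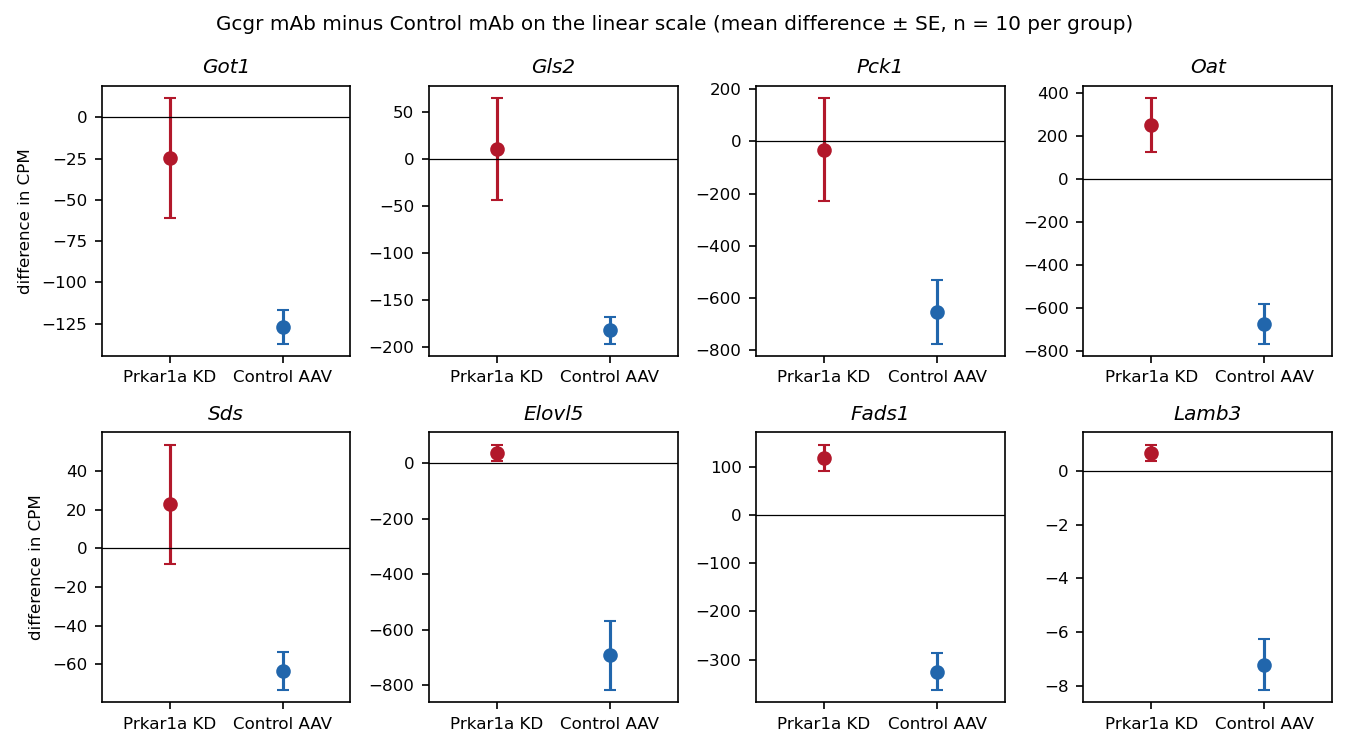
Mean difference in CPM between Gcgr mAb and Control mAb libraries for 8 genes, in Prkar1a KD and in Control AAV (bars, SE; n = 10 per group; each panel has its own axis). For Got1 and Pck1 the difference in Prkar1a KD, -24.7 ± 36.3 and -32.6 ± 198 CPM, lies within 1 SE of 0, and for Oat, Elovl5, Fads1 and Lamb3 the difference is above 0 in Prkar1a KD and below 0 in Control AAV.

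In the lists of signalling genes, the share called for the interaction ran from 0% to 7.69%, against 4.08% of all tested genes. Of 13 tested PKA subunits, inhibitors and anchors, 0 were called in either direction (median 0.05), and of 12 genes of the CREB family and its coactivators 0 were called (median -0.09). Prkaca and Prkacb, the catalytic subunit genes, were at 0.27 ± 0.11 (adjusted p = 0.134) and 0.08 ± 0.099 (adjusted p = 0.703). Prkar2a, Prkar2b, Pkia and Pkig, the type II regulatory subunits and the kinase inhibitors, had adjusted p values between 0.426 and 0.893. Gcgr was at 0.09 ± 0.093 (adjusted p = 0.600).

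Of 14 genes of the receptor, G proteins and adenylyl cyclases, Adcy6, an adenylyl cyclase, was positive at 0.53 ± 0.14 (adjusted p = 0.0205). Of 13 cAMP phosphodiesterases, Pde4b was positive. Pde4b (chromosome 4, 102087332 to 102607275), a cAMP-degrading enzyme that PKA signalling is known to induce, had 29.3, 35.1 and 53.6 CPM in Prkar1a KD + Gcgr mAb and 27.2, 42.5 and 46.2 CPM in Prkar1a KD + Control mAb, against 4.51, 6.30 and 9.78 CPM in Control AAV + Gcgr mAb and 12, 20.3 and 24.2 CPM in Control AAV + Control mAb. Its interaction was 1.44 ± 0.19 (adjusted p = 4.65e-06), and its antibody groups did not overlap in Control AAV.

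Of 20 tested CREB-driven immediate response genes, 1 was called, Nr4a2, an orphan nuclear receptor, at 1.44 ± 0.35 (adjusted p = 0.0137). Its counts were low in Control AAV, with means of 0.407 CPM with Gcgr mAb and 1.12 CPM with Control mAb. The antibody groups of Nr4a2 overlapped within each vector, and Nr4a2 lost the call with limma-voom. Its relative Nr4a1 had 26.9, 35.7 and 48.5 CPM in Prkar1a KD + Gcgr mAb and 24.9, 38.1 and 45.6 CPM in Prkar1a KD + Control mAb, against 0.644, 1.37 and 3.49 CPM in Control AAV + Gcgr mAb and 0.777, 1.77 and 3.20 CPM in Control AAV + Control mAb. Nr4a1 was thus high with Prkar1a KD and level between antibodies within each vector, with an interaction of 0.31 ± 0.29 (adjusted p = 0.575). Crem, a CREB family gene that cAMP induces, was at 0.45 ± 0.17 (adjusted p = 0.120), with antibody effects of -0.18 ± 0.12 in Prkar1a KD and -0.63 ± 0.12 in Control AAV.

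Other uncalled genes were Fgf21, a fasting hepatokine (0.52 ± 0.65, adjusted p = 0.690), Slc38a2, a neutral amino acid transporter (-0.11 ± 0.15, adjusted p = 0.712), and Igfbp1, a secreted binding protein of insulin-like growth factors (-0.84 ± 0.53, adjusted p = 0.369). No gene was called among 22 ATF4 target genes, 19 p53 targets, 19 clock genes and 19 bile acid genes. The clock list had a median of 0.31, and 26 cholesterol genes had a median of 0.38 with 1 positive call (3.85%, background 2.74%). Among the remaining lists, 23 genes of oxidative phosphorylation had 3 positive calls (13%, background 2.74%). The 30 cell cycle genes had 2 (6.67%), Mcm4 and E2f1, and 12 imprinted RNAs had 0. E2f1 lost the call without any 1 of 22 libraries (highest adjusted p = 0.0749) and with limma-voom (adjusted p = 0.0692), and Mcm4 without any 1 of 5 (highest adjusted p = 0.0620). Of 22 drug and steroid cytochromes, Cyp17a1 was positive and Cyp2c70 negative (9.09% in either direction, background 4.08%). The 19 endoplasmic reticulum chaperone genes had 1 negative call (5.26%, background 1.34%), Xbp1, a transcription factor of the unfolded protein response.

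**Figure D4:**
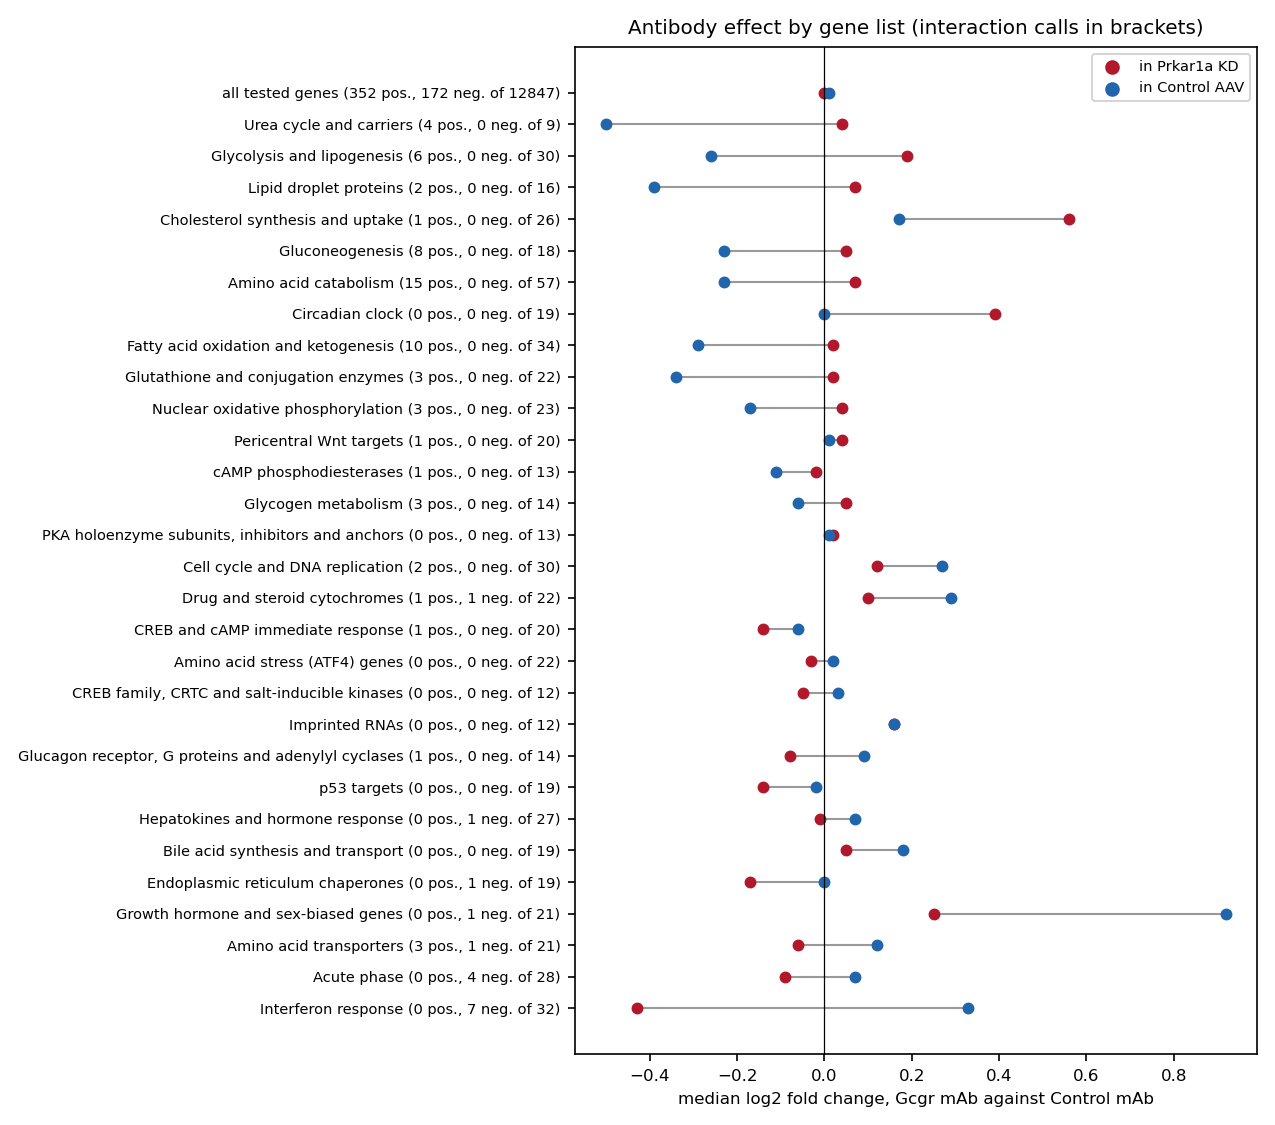
Median log2 fold change of Gcgr mAb over Control mAb over the tested genes of each list, in Prkar1a KD (red) and in Control AAV (blue), ordered by the median interaction, with the number of positive and negative interaction calls in brackets. The lists of gluconeogenesis, amino acid catabolism, the urea cycle and fatty acid oxidation lie below 0 in Control AAV and near 0 in Prkar1a KD, and the interferon list lies at -0.43 in Prkar1a KD and 0.33 in Control AAV.

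Negative interactions were led by genes that the antibody raised in Control AAV. Control AAV + Control mAb had the lowest mean for 113 of the 172 genes (65.7%, against 28.0% of all tested genes), which is again a description. Selenbp2 (chromosome 3, 94693573 to 94704406), a selenium-binding protein, had 11.8, 18.6 and 31.1 CPM in Prkar1a KD + Gcgr mAb and 10.1, 15.6 and 29.3 CPM in Prkar1a KD + Control mAb, against 88.6, 371 and 819 CPM in Control AAV + Gcgr mAb and 19.4, 39.3 and 105 CPM in Control AAV + Control mAb. All antibody groups overlapped within a vector, and the interaction was -2.67 ± 0.51 (adjusted p = 0.00146). Its antibody effect was 0.20 ± 0.36 in Prkar1a KD and 2.87 ± 0.37 in Control AAV. Selenbp2 has a near-identical relative, and reads may be split between them, as they may for Mup20, Gstm2, Cyp2a22, Cyp2c70, Eno1b, Ifit1, Oas1g, Gvin1 and Slfn8, whose counts are uncertain for that reason.

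Eif4e3 (chromosome 6, 99621879 to 99692873), a cap-binding protein, had 4.92, 6.59 and 11.0 CPM in Prkar1a KD + Gcgr mAb and 3.69, 7.55 and 8.88 CPM in Prkar1a KD + Control mAb, against 14.1, 17.9 and 26.4 CPM in Control AAV + Gcgr mAb and 5.08, 6.40 and 9.83 CPM in Control AAV + Control mAb. Control AAV + Gcgr mAb stood above the 3 other groups, with no overlap with Control AAV + Control mAb. The interaction of Eif4e3 was -1.41 ± 0.21 (adjusted p = 2.2e-05), and that of Eif4ebp3, a repressor that binds the cap-binding factor eIF4E, was -1.43 ± 0.22 (adjusted p = 5.58e-05). Antibody groups were wholly apart in Control AAV for 8 negative genes (background 0.0856%) and for none in Prkar1a KD (background 0%). As for the positive genes, these counts are a description, since the same libraries picked the genes.

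Cav1 (chromosome 6, 17306335 to 17341328), the main caveolar coat protein, had 1.36, 1.83 and 4.59 CPM in Prkar1a KD + Gcgr mAb and 1.21, 1.61 and 2.47 CPM in Prkar1a KD + Control mAb, against 4.70, 11.9 and 41.2 CPM in Control AAV + Gcgr mAb and 1.87, 3.01 and 4.15 CPM in Control AAV + Control mAb. Its interaction was -2.23 ± 0.46 (adjusted p = 0.00305). Cav1 lost the call with limma-voom and on the linear scale (limma, adjusted p = 0.0504). Cyp2c70, which makes muricholic acids, was at -1.17 ± 0.27, and the antibody groups of both genes were wholly apart in Control AAV.

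Mup20 (chromosome 4, 62011337 to 62054143), a major urinary protein, had 7770, 11100 and 18100 CPM in Prkar1a KD + Gcgr mAb and 6770, 11200 and 16500 CPM in Prkar1a KD + Control mAb, against 8880, 14200 and 25800 CPM in Control AAV + Gcgr mAb and 4460, 5960 and 7500 CPM in Control AAV + Control mAb. Here the single low group was Control AAV + Control mAb, which did not overlap with Control AAV + Gcgr mAb. The interaction of Mup20 was -1.35 ± 0.23 (adjusted p = 0.00028), and it was the only negative call among 21 tested genes of the growth hormone and sex-biased list, which had no positive call.

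The remaining 6 of the 10 largest negative interactions among genes whose mean log2 CPM was 1 or more were Smad9 (-1.95 ± 0.58), a transducer of bone morphogenetic protein signals, Gvin1 (-1.83 ± 0.40), Enho (-1.69 ± 0.44), which encodes the peptide adropin, Cd14 (-1.63 ± 0.46), an endotoxin co-receptor, Oas1g (-1.50 ± 0.42) and Slfn8 (-1.41 ± 0.31). Smad9 lost the call without any 1 of 26 libraries (highest adjusted p = 0.0855) and Cd14 without any 1 of 9 (highest adjusted p = 0.0697).

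Interferon-induced genes had the lowest median of the 29 pathway lists. Of 32 tested, 7 (21.9%, background 1.34%) had a negative and 0 a positive interaction, with a median of -0.79. The called ones were Ifit1, Mx1, Zbp1, Ifit2, Mx2, Iigp1 and Stat2. The median antibody effect of the list was -0.43 in Prkar1a KD and 0.33 in Control AAV. With Control mAb, 28 of the 32 were called higher in Prkar1a KD than in Control AAV (background 29.3%). Ifit1 (chromosome 19, 34640889 to 34650009), which binds viral RNA, had 13.4, 57.1 and 93.9 CPM in Prkar1a KD + Gcgr mAb and 38.8, 86.1 and 157 CPM in Prkar1a KD + Control mAb, against 18.2, 27.2 and 51.2 CPM in Control AAV + Gcgr mAb and 10.6, 16.8 and 32.0 CPM in Control AAV + Control mAb. All antibody groups overlapped, and neither antibody effect of Ifit1 passed the test alone (adjusted p = 0.641 in Prkar1a KD and 0.0824 in Control AAV). Its interaction was -1.40 ± 0.38 (adjusted p = 0.0274), and without Prkar1a KD + Control mAb replicate 2 the adjusted p was 0.0505. On the linear scale Ifit1, Mx1 and Zbp1 lost the call. Without replicate 2 of both Gcgr mAb groups, of which the Control AAV one had the highest Kupffer marker sum, the adjusted p was 0.0198 for Ifit1, 0.0541 for Mx1, 0.0579 for Zbp1 and 0.0668 for Oas1g. Mx1 and Zbp1 also lost the call with limma-voom (adjusted p = 0.0695 and 0.0666), and Ifit1 and Zbp1 with the replicate block (adjusted p = 0.0565 and 0.0926).

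The levels of macrophage markers are given beside the interferon genes. The summed Kupffer cell and macrophage markers, 13 of 13 tested, spanned 135 to 358 CPM (median 201) in Prkar1a KD + Gcgr mAb and 151 to 548 CPM (median 243) in Prkar1a KD + Control mAb, against 173 to 690 CPM (median 262) in Control AAV + Gcgr mAb and 162 to 341 CPM (median 189) in Control AAV + Control mAb. None of the 13 was at 0 in all libraries, none was called for the interaction, and their median was -0.76. Of 12 endothelial markers, Stab2, a scavenger receptor of sinusoidal endothelium, was called at -0.79 ± 0.23 (adjusted p = 0.0375), where the summed endothelial markers had medians of 142 CPM in Prkar1a KD + Gcgr mAb and 168 CPM in Prkar1a KD + Control mAb, against 234 CPM in Control AAV + Gcgr mAb and 192 CPM in Control AAV + Control mAb. Stab2 lost the call without any 1 of 18 libraries (highest adjusted p = 0.0630). The part of these cells in the interferon, Cd14 and Stab2 results was not tested.

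Of 28 tested acute phase genes, 4 (14.3%, background 1.34%) had a negative and 0 a positive interaction, with a median of -0.26. They were Hamp, the iron hormone hepcidin (-1.14 ± 0.33, adjusted p = 0.0406), Itih3, an inter-alpha-trypsin inhibitor chain (-0.57 ± 0.15), Cp, the copper protein ceruloplasmin (-0.50 ± 0.11), and Serpina3n, a protease inhibitor. Hamp lost the call without Control AAV + Gcgr mAb replicate 2 and Prkar1a KD + Gcgr mAb replicate 2 (-0.94, adjusted p = 0.0941) and without any 1 of 19 libraries. Inhba, the activin A subunit, was called at -1.18 ± 0.34 (adjusted p = 0.0375), and without the same 2 libraries it missed the threshold (-1.03, adjusted p = 0.0540).

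The called genes were then read in the 50 libraries of the first experiment, none of which entered the interaction. There 10 libraries each came from livers with Gcgr KD, Gnas KD, PKA KD, Epac2 KD and Control. Gnas encodes the stimulatory G protein subunit, and Epac2 is a cAMP sensor other than PKA. Those 4 knockdowns share the Control libraries. No group had Prkar1a KD, so these libraries cannot test the interaction itself. In Control AAV of the second experiment, 308 of the 352 positive genes were called lower with the antibody (background 5.27%). Of the 172 negative genes, 110 were called higher with it (background 2.92%). Of 350 positive genes tested in the first experiment, 110 (31.4%) were lower with Gcgr KD and 0 were higher, against 4.33% and 2.90% of all 13574 genes. The corresponding lower calls were 175 (50%, background 8.32%) with Gnas KD, 175 (50%, background 14.8%) with PKA KD and 24 (6.86%, background 2.74%) with Epac2 KD. Positive genes that were higher numbered 2 (background 6.83%), 40 (background 17.7%) and 11 (background 1.82%) with Gnas KD, PKA KD and Epac2 KD.

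Of the 172 negative genes, 31 (18%, background 2.90%) were higher with Gcgr KD, 37 (21.5%, background 6.83%) with Gnas KD, 67 (39.0%, background 17.7%) with PKA KD and 7 (4.07%, background 1.82%) with Epac2 KD. Lower were 0 with Gcgr KD (background 4.33%), 2 with Gnas KD (1.16%, background 8.32%), 8 with PKA KD (4.65%, background 14.8%) and 12 with Epac2 KD (6.98%, background 2.74%). Eif4e3 was 0.97 ± 0.17 with Gcgr KD (adjusted p = 9.69e-05), 0.79 ± 0.17 with Gnas KD (adjusted p = 0.000894), 1.87 ± 0.17 with PKA KD (adjusted p = 1.54e-12) and -0.09 ± 0.17 with Epac2 KD (adjusted p = 0.863).

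**Figure D5:**
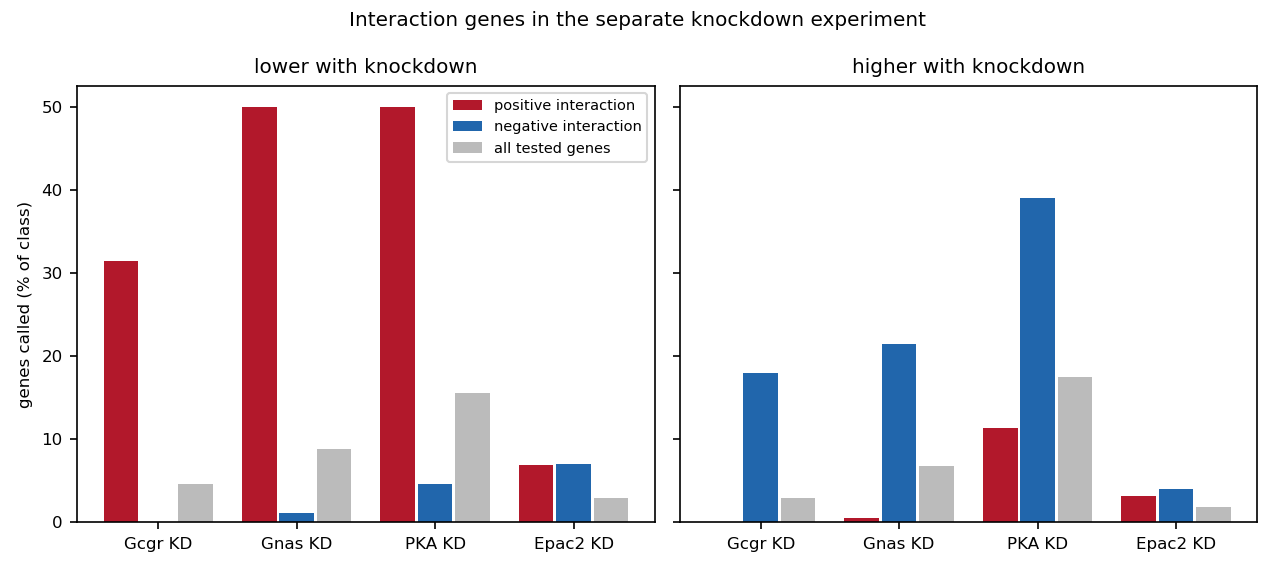
Share of the positive interaction genes (350 tested), the negative interaction genes (172) and all genes tested in both experiments (12746) that were called lower (left) or higher (right) with each knockdown of the first experiment. With Gcgr KD 31.4% of positive genes were lower and 18% of negative genes were higher, where 4.57% and 2.94% of all genes were.

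The same was counted by shape. With Gcgr KD, 70 of 207 tested genes (33.8%) of the kind lowest in Control AAV + Gcgr mAb were lower, and 38 of 138 (27.5%) of the kind lowest in Prkar1a KD + Control mAb were. With PKA KD the counts were 106 (51.2%) and 66 (47.8%). Arg1 was -0.63 ± 0.087 with Gcgr KD (adjusted p = 1.03e-06), -0.79 ± 0.088 with PKA KD (adjusted p = 3.42e-10) and 0.05 ± 0.087 with Epac2 KD (adjusted p = 0.857). Fads1, also lowest in Control AAV + Gcgr mAb, was -0.70 ± 0.17 with Gcgr KD (adjusted p = 0.00543), -1.29 ± 0.17 with PKA KD (adjusted p = 2.93e-08) and -0.66 ± 0.17 with Epac2 KD (adjusted p = 0.0116). Of the other shape, Lamb3 was -1.09 ± 0.22 with Gcgr KD (adjusted p = 0.000752) and -0.38 ± 0.22 with PKA KD (adjusted p = 0.178), and Elovl5 was -0.45 ± 0.32 with Gcgr KD (adjusted p = 0.426) and -1.11 ± 0.32 with PKA KD (adjusted p = 0.00540).

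Some large interactions had smaller or uncalled effects there. Got1 was -0.72 ± 0.24 with Gcgr KD (adjusted p = 0.0507), -0.96 ± 0.24 with Gnas KD (adjusted p = 0.00346) and -0.32 ± 0.23 with PKA KD (adjusted p = 0.314). Mmd2 was called with none of the 4 knockdowns, at -0.29 ± 0.51 with Gcgr KD (adjusted p = 0.798). Of the 32 interferon genes, 12 were higher (background 2.90%) and 0 lower with Gcgr KD, and 14 were higher (background 17.7%) and 1 lower with PKA KD. With Gnas KD 1 was higher and 1 lower, and with Epac2 KD 0 were higher and 15 lower (background 2.74%).

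Promoters were searched for the cAMP response element (CRE), the site that CREB binds, since many of the genes are known to be cAMP-responsive. The full site is TGACGTCA, which reads the same on both strands and contains the core site TGACG, whose other strand reads CGTCA. RefSeq windows on GRCm38.p6, from 250 bases before to 50 bases after the start of transcription, were found for 272 of the 352 positive genes, 127 of the 172 negative genes and 10236 of the 12847 tested genes. The 4 windows of 30 bases are shown because Pck1, Pde4b and Nr4a2 are known to be induced by cAMP and Elovl5 is the example of the second shape. Capitals mark the core site, or the full site for Elovl5, on the strand of the gene.
Pck1, chr2:173152971-173153000, plus strand: gcctgccccttaCGTCAgaggcgagcctcc
Pde4b, chr4:102421509-102421538, plus strand: gatttggctgcaCGTCAattttctcatctg
Nr4a2, chr2:57124130-57124159, minus strand: gccggctgcacgCGTCAcggagcccggccg
Elovl5, chr9:77917357-77917386, plus strand: ccgcgccattgTGACGTCAcggtcagccca
The Pck1 core site lay 90 to 86 bases before the start of transcription, the Pde4b core site lay 34 to 30 bases before it, and the Elovl5 full site just after it. The Nr4a2 site shown is 1 of 4 core sites in its window.

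A gene counted if any of its windows held the site, and genes with several start sites had several windows. The full CRE was found for 19 of 272 positive genes (6.99%), 5 of 127 negative genes (3.94%) and 355 of 10236 of all tested genes (3.47%). The core site was found for 96 of 272 (35.3%), 31 of 127 (24.4%) and 3558 of 10236 (34.8%). By shape, the core site was found for 39.0% of the genes lowest in Control AAV + Gcgr mAb and 28.8% of those lowest in Prkar1a KD + Control mAb. The full site was found for 6.10% and 7.69% of these genes. Among the other genes chosen by rule, a site was also in windows of the positive genes Oat, Slc38a4, Ppp1r3g, E2f1 and Uqcrfs1, the Rieske protein gene, of the negative gene Smad9, and of the uncalled genes Nr4a1, Ppargc1a, Fgf21, Slc38a2, Prkaca, Prkacb, Prkar1a, Prkar2a and Pkig. Sites of genes on chromosome 18, among them Crem, Eif4ebp3, Cd14 and Eno1b, are not reported here, so their absence from this list does not mean that they lack a site. A match describes letters in a window, not binding.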

How the data were processed

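Polyadenylated liver RNA was sequenced as strand-specific libraries, per the labels' protocols, and the submitters' processing notes name FastQC, bcl2fastq 2.17 and the GRCm38 (mm10) build. The authors deposited expected counts per gene (estimated counts that need not be whole; 8.55% had a fraction), and the counting tool and its handling of strand are not stated in the labels. Here they were rounded and scaled by TMM. Each contrast of the 40 libraries was tested by a quasi-likelihood F test (edgeR 4.0.16, R 4.3.3, robust fit, 1 mean per group, genes kept by filterByExpr), with Benjamini-Hochberg adjustment over 12847 genes. CPM use the scaled library size. Errors are standard errors (SE) unless SD is written. The first experiment was fitted alike on its 50 libraries. Alternatives were DESeq2 1.42.0, limma 3.58.1 (voom, and linear CPM), other scaling and filters, a depth covariate, the replicate number as a block, and each library left out. The low-value filter applied to all members alike: of 656 pathway and 109 marker entries in the lists, counts are given over those tested.

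The members and gene lists were chosen with earlier results of these data known. Genes were named by rule: 24 listed genes, the 10 largest called interactions per direction whose mean log2 CPM was 1 or more and whose symbol was a name, and up to 3 called members per list and direction, 81 genes in all; some genes are not reported here. Other called members of a list were named after their values were seen. The test was first run on simulated data. Libraries sharing a replicate number did not deviate together (median r -0.006 over 60 pairs, 19 above 0.1), so no pairing was assumed. No 2 libraries matched within sampling noise.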

Additional observations from a re-analysis of the deposited data

Results flagged for a closer look

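The antibody effect differed between Prkar1a KD and Control AAV by the interaction test for 524 genes. Single libraries far from the others of their group were looked for in 43 genes by Dixon's test for groups of 10 at the 95% level, which flags about 1 group in 20 by chance. Of 176 groups tested, 26 were flagged. All values that follow are CPM.

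In Prkar1a KD + Gcgr mAb, replicate 7 was flagged for Treh (6.58), Fgf21 (12.9), Prkar2b (1.32), Oas1g (5.21), Cd14 (2.31) and Smad9 (5). Replicate 2 of that group, the shallowest library, was flagged for Pkia (10.1) and Cav1 (4.59), and replicate 8 for Eif4e3 (11.0). In Prkar1a KD + Control mAb, replicate 9 was flagged for Cyp2a22 (42.0), Treh (3.68) and Eif4ebp3 (8.46).

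In Control AAV + Gcgr mAb, replicate 2, the library that stood apart by its correlation, was flagged for Gprc5b (1.44), Fgf21 (28.6), Nr4a1 (3.49), Igfbp1 (62.7) and Cd14 (12.4). Others of that group were Mmd2 in replicate 1 (0.890), Tmem266 in replicate 3 (0.205), Treh in replicate 4 (2.23) and Slc38a2 in replicate 7 (108). In Control AAV + Control mAb, replicate 10 was flagged for Eno1b (89.6) and Prkar1a (97.8), replicate 7 for Pck1 (1880), replicate 6 for Pkia (2.14) and replicate 9 for Treh (1.29).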

How the results depend on the processing

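The interaction was called for 352 positive and 172 negative genes, and the number of negative genes was 106 with no low-count filter (266 positive), 256 with DESeq2 (496 positive) and 150 with limma-voom (323 positive). DESeq2's size factors gave 359 positive and 158 negative genes, and a depth covariate 360 and 175. Leaving out 1 library gave 269 to 448 positive and 111 to 254 negative genes. The antibody effect in Prkar1a KD gave 0 calls under every alternative run for it. It was not refitted with the depth covariate or with single libraries left out. Signs changed only for uncalled genes: Pkia was -0.07 with DESeq2, -0.0027 without replicate 2 of both Gcgr mAb groups (an alternative chosen after the data were seen) and -0.07 to 0.76 over single libraries left out. Pkig was -0.0013 to 0.10 over single libraries left out. The cause was not tested. Of the 81 named genes, 65 were called with all libraries. Leaving out 1 library kept the direction and the status, called or uncalled, in 3074 fits over the 81 genes. It lost the call in 164 fits and turned the sign in 2.

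With the replicate number as a block, 322 positive and 155 negative genes were called, of which 297 and 132 were called without it, and 0 libraries correlated best with their own number in all other groups at once. Of 60 same-number pairs, 19 correlated above 0.1 (range -0.343 to 0.445).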
